A study of Gallus gallus with 2 samples.

Results

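A list of 42 genes was examined, covering the centromere and inner kinetochore, the outer kinetochore, the fibrous corona, the checkpoint, and the passenger complex and mitotic kinases. A gene was found where the array's platform annotation gave its symbol to a probe set, and 37 of the 42 genes were found, out of 13009 genes on the array. No probe set carried the symbol of CENPA (the centromeric histone), SPC24, PMF1, AURKA or CDCA8, so these 5 genes were not analysed under these symbols. Each gene is given by its brightest probe set, and all 37 genes had a signal of at least 31.0 in both arrays, the floor above which a probe set was taken as measured. No gene of the 37 was therefore lost to a filter on low values.

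Kinetochores are protein assemblies that form on centromeric chromatin and attach each chromosome to spindle microtubules in mitosis. Their inner layer, the constitutive centromere-associated network, sits on nucleosomes that contain the histone H3 variant CENP-A, and their outer layer, made of KNL1 and the MIS12 and NDC80 complexes, binds microtubules. The spindle assembly checkpoint is a signal from unattached kinetochores that holds the anaphase-promoting complex inactive until chromosomes are attached. Many of these transcripts are cell cycle regulated and highest around mitosis in dividing vertebrate cells, so their amount in a culture also depends on how many cells are in that phase.

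The samples were 1 PTIP deficient clone, with the genotype given as PTIP-/-/-, and 1 wild-type clone of DT40, an established chicken B cell line from the bursa of Fabricius; both were grown at the same temperature. PTIP, the product of PAXIP1, is an adaptor with BRCT domains that acts in DNA damage responses and belongs to a histone methyltransferase complex. Each genotype was hybridised to 1 single-colour Affymetrix chicken genome array. With 1 array per genotype there is no replicate spread and no test, and a difference between genotypes cannot be told apart from one between clones, cultures or hybridisations.

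PAXIP1 had a signal of 593 in PTIP deficient and 1045 in wild-type cells, in its only measured probe set; its position relative to the disrupted exons is unknown here. The mean signal between percentiles 2 and 98 was 499.9 in both arrays, and 60.4% of probe sets in the PTIP deficient array and 59.6% in the wild-type array reached the floor. The actin 3' to 5' ratio was 1.09 in the PTIP deficient array and 1.20 in the wild-type array. All 27 hybridisation control probe sets were higher in the PTIP deficient array, at a median log2 ratio of 0.30; its part in the shifts below was not tested. Of 10 B cell markers on the array, 8 in PTIP deficient cells and 9 in wild-type cells had signals of at least 131.5, the highest reporter signal but 1. The summed signal of the 10 was 20906 in PTIP deficient and 66745 in wild-type cells. IGLL1 was the brightest in wild-type cells (3619 in PTIP deficient and 29961 in wild-type cells), and 9 of the 10 were lower in PTIP deficient cells. The T cell markers summed to 17482 in PTIP deficient cells and 9512 in wild-type cells, mostly from CD3D, and 4 of 10 in PTIP deficient and 2 of 10 in wild-type cells reached 131.5. CD8A (563 in PTIP deficient and 78.2 in wild-type cells) and CD5 (303 in PTIP deficient and 73.3 in wild-type cells) reached it in the PTIP deficient array alone, while CD4 (5.26 in PTIP deficient and 5.72 in wild-type cells) and LCK (2.40 in PTIP deficient and 1.89 in wild-type cells) were near 0. Of the 6 T cell markers measured in both arrays, 4 were higher in PTIP deficient cells and 2 were lower. The lower ones, both under 131.5, were CD3E (45.5 in PTIP deficient and 46.5 in wild-type cells) and ZAP70 (45.3 in PTIP deficient and 53.3 in wild-type cells). The other markers were mixed. The macrophage and granulocyte list summed to 2596 in PTIP deficient and 4241 in wild-type cells over 7 genes. SPI1 was the brightest of them (1429 in PTIP deficient and 2968 in wild-type cells). Of the 6 measured in both arrays, 3 were higher in PTIP deficient cells and 3 lower. The erythroid and thrombocyte list summed to 12094 in PTIP deficient and 8830 in wild-type cells over 4. Nearly all of that was TFRC (12004 in PTIP deficient and 8719 in wild-type cells), the others being under 131.5 in both arrays. The mesenchymal and epithelial list summed to 12734 in PTIP deficient and 4478 in wild-type cells over 8, most of it VIM. The part of these differences in the kinetochore results was not tested.

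Centromere, kinetochore and checkpoint transcripts were mostly slightly lower in PTIP deficient cells. Of the 37 genes, 27 (73.0%) had a log2 ratio (PTIP deficient minus wild-type) below 0, against 47.4% of the 9165 genes measured in both arrays. Their median log2 ratio was -0.23, a signal 0.855 times that of wild-type cells, against a median of 0.03 over all measured genes. The middle quartiles of the 37 genes lay between -0.45 and 0.03. At a bar of 1.5-fold, 7 genes (18.9%) were lower, against 11.5% of all measured genes, while none (0) were that much higher, against 13.1%. At a bar of 2-fold, 1 gene was lower, against 4.46% of all measured genes, and 0 were higher, against 5.03%. With 37 genes, a count of 1 past 2-fold is too few to differ from that share. The list median was lower than that of the array. These shares include dim genes. With both signals at 131.5 or more, 0 of 34 genes of the list were at least 1.5-fold higher, against 9.52% of such genes on the array. Of the same 34, 6 were that much lower, against 8.44%. Whether the absence of higher genes sets this short list apart from the array was not tested. Of the 37 genes, 30 were within 1.5-fold. With the mean of all measured probe sets of a gene, the count of 7 became 4 (10.8%), against 10.8% of all genes, so the share then did not exceed that of the array. It was also 4 with an offset of 50 added to both signals, against 7.998% of all genes, and without a floor the 7 genes stood against 18.5% of all genes. With the hybridisation controls set to 0 it became 15 (40.5%), against 24.6% of all genes, and all 37 genes were below 0, against 73.8%. That scaling subtracts the same constant from every log2 ratio, and it moved the median of all genes to -0.27. The list median minus that of all genes was -0.25 with or without that scaling, since such a subtraction cannot change it. Only probe sets of the same gene repeat a measurement here, and their log2 ratios had an SD of 0.36 per probe set over 4284 genes, so the ratio of a single gene under 1.5-fold (0.58 on the log2 scale) is of the size of probe error.

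**Figure D1:**
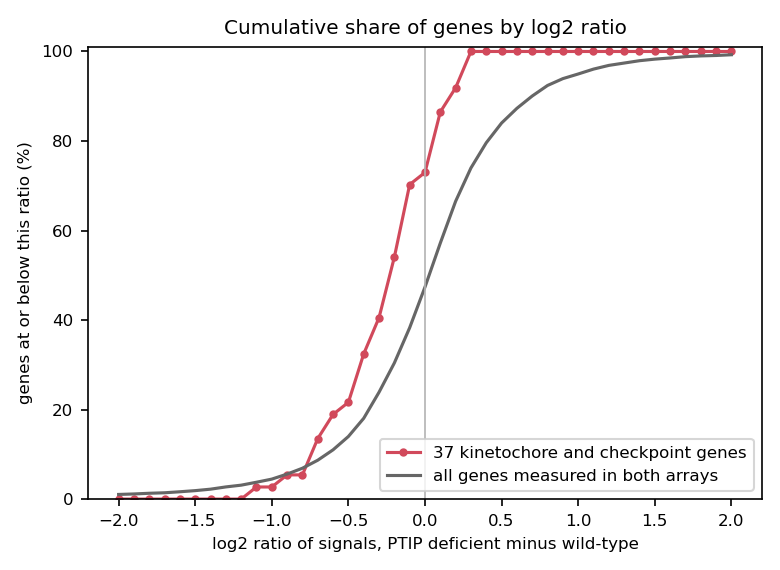
Cumulative percentage of genes (vertical axis) with a log2 ratio of signals, PTIP deficient minus wild-type, at or below each value (horizontal axis), for the 37 kinetochore and checkpoint genes (red, with points) and all 9165 measured genes (grey). The red curve lies to the left of the grey one around 0, where it reaches 73.0% against 47.4%, and it is complete at 0.3, where the grey curve is at 74.0%.

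CENPQ had the lowest ratio of the list and was the only one of the 37 genes past 2-fold. Its signal was 441 in PTIP deficient and 1007 in wild-type cells, 2.28-fold lower (log2 ratio -1.19). CENPQ is a subunit of the CENP-O, CENP-P, CENP-Q and CENP-U complex of the inner kinetochore, which in human cells helps to bring PLK1 and CENP-E to kinetochores. It is represented by 1 probe set, so no second probe set bears on this value. CENPU, the PLK1-binding subunit, had signals of 284 in PTIP deficient and 385 in wild-type cells (log2 ratio -0.44), and a second measured probe set gave -0.63. CENPP had signals of 1123 in PTIP deficient and 1301 in wild-type cells (-0.21, and -0.41 in its second probe set). CENPO, the remaining subunit, had signals of 769 in PTIP deficient and 723 in wild-type cells (0.09), with a second probe set at -0.06. The 4 subunits of this complex therefore spanned from -1.19 to 0.09, the low end being the single probe set of CENPQ. Whether they share a common shift was not tested, and the SD per probe set was 0.36.

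In the CENP-H, CENP-I, CENP-K and CENP-M complex all 4 genes were lower in PTIP deficient cells, against 47.4% of all measured genes. This complex links the CENP-A nucleosome layer to CENP-T, and its loss in DT40 cells is known to disturb kinetochore assembly. CENPK had a signal of 1341 in PTIP deficient and 2324 in wild-type cells, 1.73-fold lower (log2 ratio -0.79). CENPM had a signal of 865 in PTIP deficient and 1449 in wild-type cells, 1.68-fold lower (-0.75), its second measured probe set being under 131.5 in both arrays. These are 2 of the 3 inner kinetochore genes past 1.5-fold, CENPQ being the other. CENPI, with 1208 in PTIP deficient and 1424 in wild-type cells (-0.24), and CENPH, with 2897 in PTIP deficient and 3234 in wild-type cells (-0.16), were nearer to 0. CENPK and CENPH are both on chromosome Z, whose 406 measured genes had a median log2 ratio of -0.16, equal to that of CENPH.

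The other inner kinetochore genes were all within 1.5-fold. CENPC, whose product binds that nucleosome and recruits the MIS12 complex, had a signal of 871 in PTIP deficient and 1191 in wild-type cells (log2 ratio -0.45). CENPN, whose product also recognises the CENP-A nucleosome, had 1231 in PTIP deficient and 1741 in wild-type cells (-0.50), and its second measured probe set gave -0.56. CENPL, the partner of CENP-N, had 1072 in PTIP deficient and 1162 in wild-type cells (-0.12). In the histone-fold complex of CENP-T, CENP-W, CENP-S and CENP-X, CENPX had 3312 in PTIP deficient and 4540 in wild-type cells (-0.45). CENPS had 2844 in PTIP deficient and 3062 in wild-type cells (-0.11). CENPT, whose product recruits the NDC80 complex, had 2358 in PTIP deficient and 2270 in wild-type cells (0.05, and -0.18 in its second probe set). CENPW had 4679 in PTIP deficient and 4507 in wild-type cells (0.05). The median of this complex was -0.03, close to that of all measured genes, while CENP-H, CENP-I, CENP-K and CENP-M had a median of -0.49. Each complex has 4 genes, the grouping was chosen after the values were seen, and the difference between the complexes was not tested. CENP-S and CENP-X also act with FANCM in DNA repair, so their transcripts do not report on the kinetochore alone. Over the 15 inner kinetochore genes the median was -0.24, with 12 (80%) below 0, against 47.4% of all measured genes. Of the 15, 3 were at least 1.5-fold lower, against 11.5%.

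**Figure D2:**
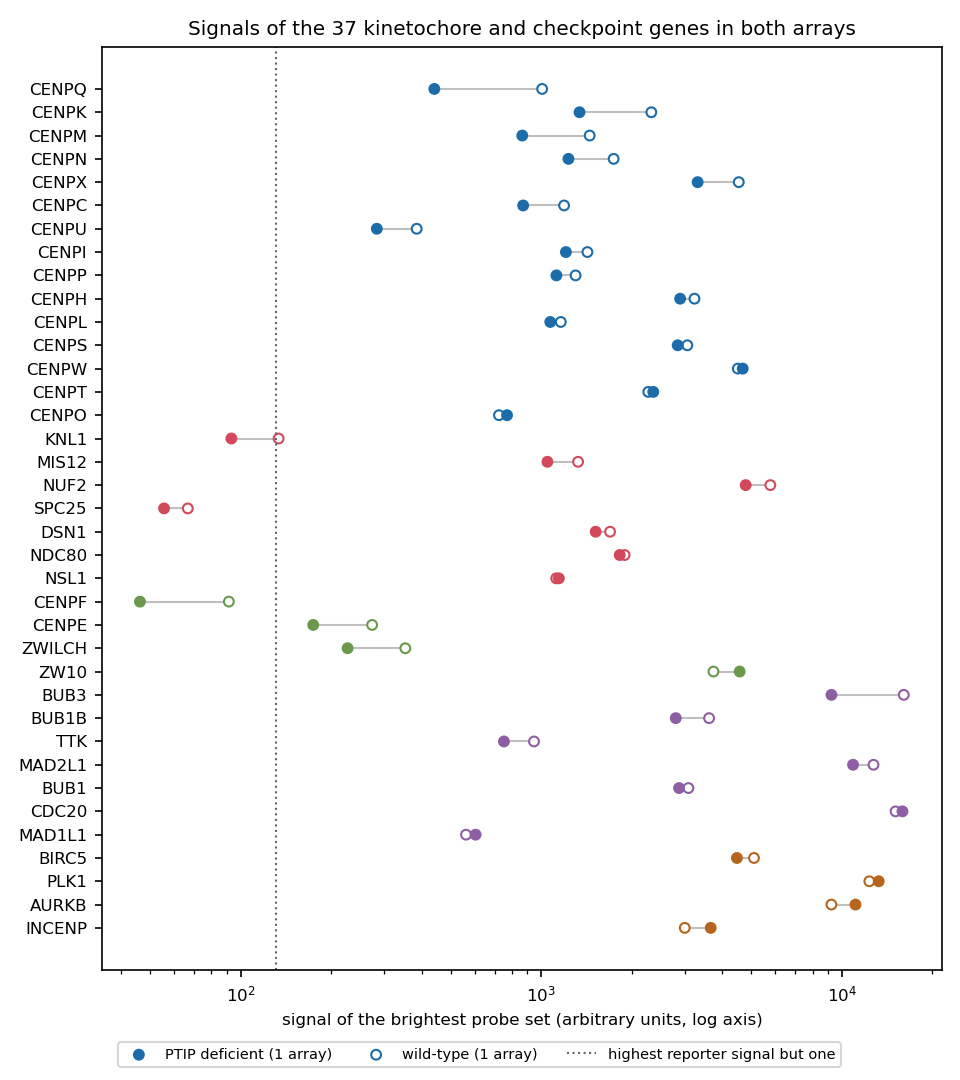
Signal of the brightest probe set (horizontal log axis, arbitrary units) of each of the 37 genes, in PTIP deficient cells (filled) and wild-type cells (open), 1 array each, joined by a line and coloured by role. The line is longest for CENPQ (441 in PTIP deficient and 1007 in wild-type cells) and CENPF (46.3 in PTIP deficient and 91.4 in wild-type cells), and CENPF and SPC25 lie left of the dotted line at 131.5 in both arrays. Signals of different genes come from different probes and are not to be compared with each other.

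Outer kinetochore genes had ratios near 0 or slightly lower. Of the 7 found on the array, 0 were past 1.5-fold, against 11.5% of all measured genes lower and 13.1% higher by as much. With 7 genes this is too few to differ from these shares. Of the same 7, 6 (85.7%) were below 0, against 47.4% of all measured genes, and the median was -0.26. That median is the value of SPC25, which was dim in both arrays. Over the 5 genes with both signals at 131.5 or more the median was -0.16, and 4 were below 0, against 47.6% of such genes on the array. In the NDC80 complex, the main microtubule binder of the kinetochore, NDC80 had a signal of 1824 in PTIP deficient and 1894 in wild-type cells (log2 ratio -0.05, and 0.01 in its second probe set). NUF2, its direct partner, had 4786 in PTIP deficient and 5781 in wild-type cells (-0.27, and -0.38 in its second probe set). The SPC25 signals of 55.6 in PTIP deficient and 66.7 in wild-type cells were under 131.5 in both arrays and give no usable difference. In the MIS12 complex, which joins the inner and outer layers, MIS12 had 1048 in PTIP deficient and 1326 in wild-type cells (-0.34), DSN1 had 1517 in PTIP deficient and 1694 in wild-type cells (-0.16), and NSL1 had 1144 in PTIP deficient and 1122 in wild-type cells (0.03). KNL1, the scaffold to which BUB1 and BUB3 bind, had 93.2 in PTIP deficient and 134 in wild-type cells, at least 1.02-fold lower when the first signal is set to 131.5.

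The fibrous corona is the outermost layer on unattached kinetochores. Its 4 listed genes included 3 of the 7 that were at least 1.5-fold lower, a size reached by 11.5% of all measured genes. Of these 3, CENPF was under 131.5 in both arrays and the probe sets of ZWILCH had opposite signs. CENPE, a kinesin that carries chromosomes to the spindle equator, had a signal of 174 in PTIP deficient and 274 in wild-type cells, 1.57-fold lower (log2 ratio -0.65), while its second probe set had 103 in PTIP deficient and 145 in wild-type cells, of which the first was under 131.5. CENPF, a large corona protein, had 46.3 in PTIP deficient and 91.4 in wild-type cells (-0.98). All 5 of its probe sets were under 131.5 in both arrays, so they give no usable size of difference. ZWILCH, a subunit of the RZZ complex that recruits the MAD1 and MAD2 proteins, had 227 in PTIP deficient and 353 in wild-type cells, 1.56-fold lower (-0.64), but its second probe set had 136 in PTIP deficient and 111 in wild-type cells and the opposite sign, from a wild-type signal under 131.5. ZW10, another RZZ subunit that also acts in membrane traffic, had 4571 in PTIP deficient and 3739 in wild-type cells (0.29), with a second probe set at -0.02. Its chromosome, 24, had a median of 0.15 over 113 measured genes.

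BUB3 stood lowest among the checkpoint genes. Its signal was 9231 in PTIP deficient and 16068 in wild-type cells, 1.74-fold lower (log2 ratio -0.80), from 1 probe set, whose _s_at suffix marks probes shared by several transcripts. BUB3 binds phosphorylated KNL1 and brings BUB1 and BUB1B, the gene of BUBR1, to kinetochores. The signals of its partners differed less. BUB1B had 2802 in PTIP deficient and 3616 in wild-type cells (-0.37), its second probe set being under 131.5 in both arrays, and BUB1 had 2873 in PTIP deficient and 3087 in wild-type cells (-0.10, and -0.18 in its second). MAD2L1, which encodes the checkpoint effector MAD2, had 10892 in PTIP deficient and 12740 in wild-type cells (-0.23). MAD1L1, which encodes the MAD2 receptor MAD1, had 605 in PTIP deficient and 562 in wild-type cells (0.11, and 0.35 in its second probe set), the only gene with several measured probe sets that were all above 0. TTK, the MPS1 kinase that starts the checkpoint signal, had 751 in PTIP deficient and 946 in wild-type cells (-0.33), with its other probe sets at -0.17 and 0.35, so its direction is not settled. CDC20, the activator of the anaphase-promoting complex that the checkpoint restrains, had 15906 in PTIP deficient and 15087 in wild-type cells (0.08). Of these 7 genes 5 (71.4%) were below 0, against 47.4% of all measured genes, and the median was -0.23.

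**Figure D3:**
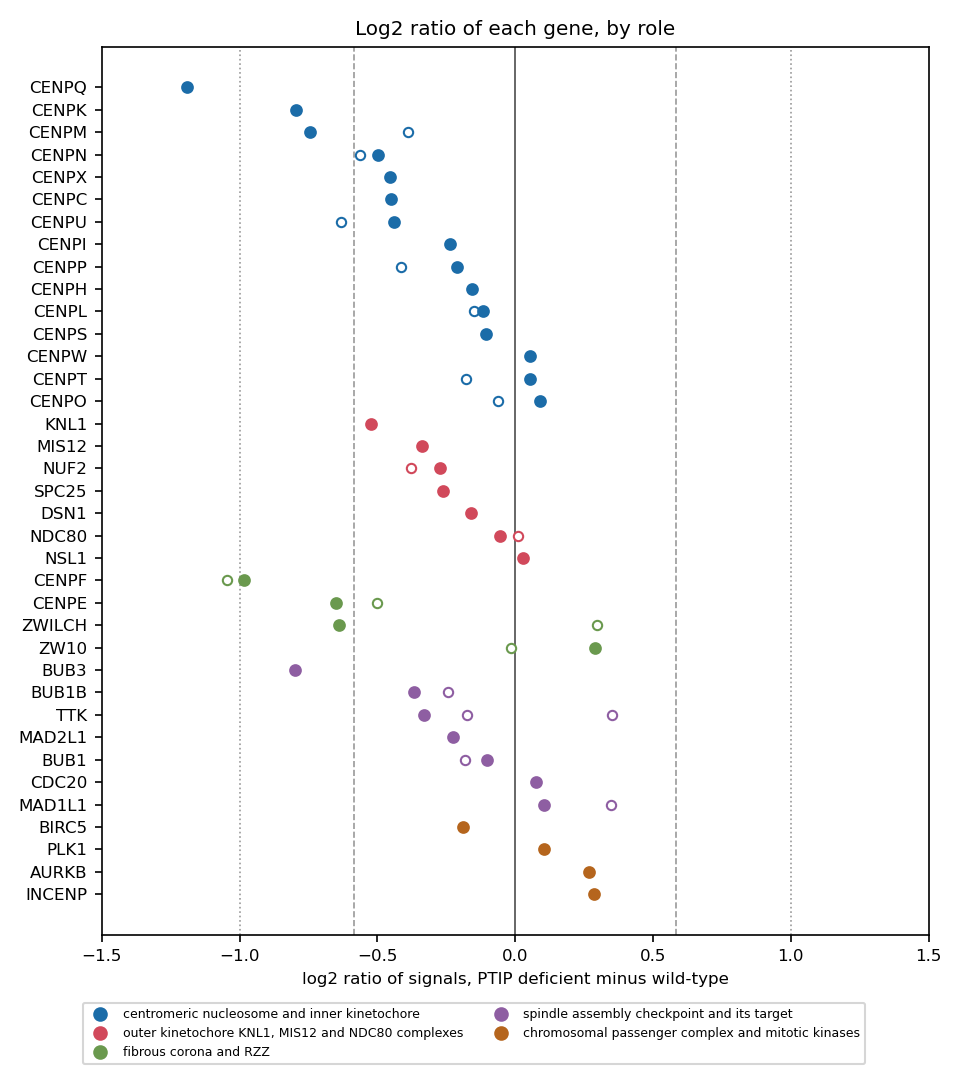
Log2 ratio of signals, PTIP deficient minus wild-type (horizontal axis), of each of the 37 genes by role, with the brightest probe set filled and other measured probe sets open; dashed lines mark 1.5-fold and dotted lines 2-fold. Inner kinetochore genes (blue) run from -1.19 to 0.09, passenger and kinase genes (brown) from -0.19 to 0.29, and the probe sets of ZWILCH and TTK lie on both sides of 0.

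The passenger complex and the mitotic kinases had the highest median of the role groups, 0.18, though with the hybridisation controls set to 0 it was -0.11. Of the 4 genes 3 were above 0 and 1 (25%) below 0, against 47.4% of all measured genes below 0. With 4 genes and an SD of 0.36 per probe set, a difference from the other groups was not tested. INCENP, the scaffold of the chromosomal passenger complex, which corrects faulty attachments, had a signal of 3662 in PTIP deficient and 3002 in wild-type cells (log2 ratio 0.29). A related gene named INCENPL lies beside it in the RefSeq annotation, so cross-detection by this probe set is possible. BIRC5, the gene of survivin, had 4476 in PTIP deficient and 5100 in wild-type cells (-0.19), opposite in sign to INCENP. PLK1, a kinase that acts at centrosomes and kinetochores, had 13258 in PTIP deficient and 12340 in wild-type cells (0.10). The gene annotated as AURKB, an Aurora kinase, had 11097 in PTIP deficient and 9227 in wild-type cells (0.27). It lies on chromosome 20 in the RefSeq annotation, between CSTF1, which was not measured, and FAM210B. FAM210B had 523 in PTIP deficient and 863 in wild-type cells (-0.72). In human the neighbour of CSTF1 is AURKA, so which of these Aurora kinases the probe set reads is uncertain. The 215 measured genes of chromosome 20 had a median of 0.37, the highest among chromosomes that hold a gene of the list, and the AURKB ratio was below it.

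Across probe sets the direction was similar to that by gene. This was largely fixed, since the 37 brightest probe sets that gave the gene values are among those counted. The 37 genes had 66 probe sets, 55 of them measured in both arrays, and 41 of the 55 (74.5%) were below 0, against 48.7% of all measured probe sets. Of the 17 genes with several measured probe sets, 10 had all of them below 0, 1 had all above 0 and 6 had both signs. Both signals were at 131.5 or more in 46 probe sets, of which 34 are gene values. Of the 46, 33 (71.7%) were below 0, against 48.1% of such probe sets on the array. Of the 11 genes with several of these, 5 had all below 0, 1 had all above 0 and 5 had both signs. The matching shares over all genes with several probe sets are not given here, so these counts by gene are a description only. The remaining 20 genes rest on 1 measured probe set each, CENPQ, CENPK and BUB3 among them.

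Genes with lower signals were found among bright and dim probe sets and on most chromosomes that hold a gene of the list. With both signals at 131.5 or more, 34 genes remained, of which 24 were below 0, against 47.6% of the 6658 such genes on the array. At least 1.5-fold lower were 6 of the 34 (17.6%, all but CENPF of the 7), against 8.44% of such genes. When all measured genes were divided into 10 classes of equal size by mean log2 signal, 27 of the 37 genes lay below the median of their class. Class medians ran from -0.02 to 0.07, so this count could differ little from that of genes below 0. In the brightest class 2 of the 5 genes of the list lay below the class median. Dimmer genes of the list tended to have lower ratios. The Spearman correlation between log2 ratio and mean log2 signal was 0.43 over the 37 genes, which share both arrays. Over all measured genes it was -0.02. The 37 include CENPF and SPC25, under 131.5 in both arrays, and KNL1, under it in PTIP deficient cells. The correlation without them is not given here, so it may lean on values without a usable difference. The 37 genes lie on 19 chromosomes, and 28 of them had a ratio below the median of their own chromosome. Those medians ran from -0.16 (Z) to 0.37 (20), and most were near 0, so this count could also differ little. All 5 genes on chromosome 4 (CENPC, CENPE, CENPI, CENPU and MAD2L1) were below 0, with a median of -0.44 against -0.03 for that chromosome. Of the 8 genes on chromosome 3 there were 5 below 0, with a median of -0.15 against -0.03. The share below 0 over all measured genes was 47.4%.

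**Figure D4:**
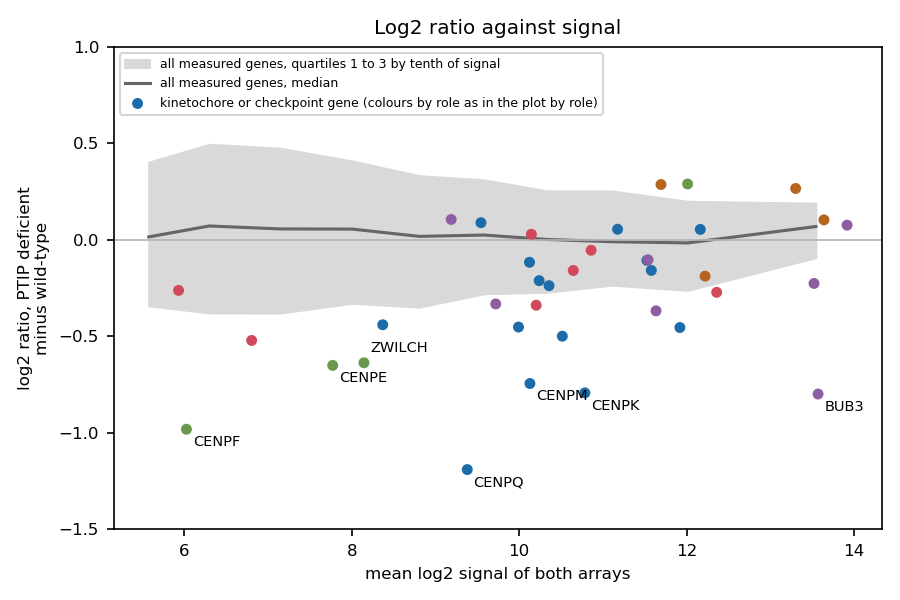
Log2 ratio, PTIP deficient minus wild-type (vertical axis), against the mean log2 signal of both arrays (horizontal axis) for the 37 genes, coloured by role, with the median (line) and quartiles (band) of all measured genes in 10 classes of signal. The 7 named genes are at least 1.5-fold lower, and of these BUB3 is the brightest and CENPF the dimmest.

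Of the 14 protein-coding neighbours in gene order of the 7 genes past 1.5-fold, 7 were measured, and none of them was lower by 1.5-fold. Of all measured genes 11.5% were that much lower, so 7 neighbours are too few to differ from that share. Neither neighbour of BUB3 was measured. MUT, the gene after CENPQ, had a signal of 627 in PTIP deficient and 481 in wild-type cells (log2 ratio 0.38). BDH2, beside CENPE, had 865 in PTIP deficient and 408 in wild-type cells (1.09), and PTPN14, beside CENPF, had 387 in PTIP deficient and 219 in wild-type cells (0.82), both opposite in sign to the kinetochore gene. ADAMTS6 and PPWD1, on either side of CENPK, had log2 ratios of -0.19 and -0.18, against -0.79 for CENPK, RPL4, beside ZWILCH, had 0.17, and the unnamed gene beside CENPM had 0.21.

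The medians of lists of other mitosis genes were also below 0. Over 19 further kinetochore, centromere loading and cohesion protection genes the median log2 ratio was -0.22. Of these, 13 (68.4%) were below 0, against 47.4% of all measured genes. By 1.5-fold or more 3 were lower, against 11.5%, and 2 were higher, against 13.1%. SGO1, which protects centromeric cohesion, had a signal of 1728 in PTIP deficient and 2742 in wild-type cells (-0.67). NDEL1, a dynein regulator, had 1382 in PTIP deficient and 525 in wild-type cells and was 2.63-fold higher, and CENPV had 4452 in PTIP deficient and 2416 in wild-type cells and was 1.84-fold higher. CENPJ, a centriole gene, had 80.1 in PTIP deficient and 125 in wild-type cells, under 131.5 in both arrays.

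Over 23 spindle, motor and cytokinesis genes the median was -0.17, with 15 (65.2%) below 0, against 47.4% of all measured genes. KIF11, the kinesin that pushes spindle poles apart, had 1569 in PTIP deficient and 2589 in wild-type cells (log2 ratio -0.72), and NUSAP1, a spindle microtubule protein, had 1791 in PTIP deficient and 2746 in wild-type cells (-0.62). CEP55, of the midbody, had 800.0 in PTIP deficient and 561 in wild-type cells (0.51), and NUMA1 had 125 in PTIP deficient and 55.3 in wild-type cells, under 131.5 in both arrays.

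Over 13 genes of the anaphase-promoting complex and mitotic exit the median was -0.14, with 7 (53.8%) below 0, close to the 47.4% of all genes, and it turned to 0.014 with the mean of all measured probe sets. CDC23, a subunit of that complex, had 1313 in PTIP deficient and 3550 in wild-type cells and was 2.70-fold lower. CDC26, another subunit, had 656 in PTIP deficient and 926 in wild-type cells (log2 ratio -0.50), ANAPC2 had 3121 in PTIP deficient and 2710 in wild-type cells (0.20), and ANAPC13 had 996 in PTIP deficient and 765 in wild-type cells (0.38).

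Over 17 regulators of mitotic entry the median was -0.16, with 13 (76.5%) below 0, against 47.4% of all measured genes. CKS2, a small partner of cyclin-dependent kinases, had 792 in PTIP deficient and 1727 in wild-type cells and was 2.18-fold lower. MKI67, the proliferation marker, had 3367 in PTIP deficient and 5398 in wild-type cells (log2 ratio -0.68). In the other direction, MYBL2, a transcription factor that activates mitotic genes, had 7406 in PTIP deficient and 5177 in wild-type cells (0.52), and CDC25A, a phosphatase that activates cyclin-dependent kinases, had 8696 in PTIP deficient and 7366 in wild-type cells (0.24).

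Cohesin and condensin genes had a median of -0.20 over 16 genes, with 12 (75%) below 0, against 47.4% of all genes. Origin licensing and MCM genes had the lowest median of these lists, -0.49 over 16 genes. Of these, 14 (87.5%) were below 0, against 47.4% of all genes, and 7 at least 1.5-fold lower, against 11.5%. SMC2, a condensin subunit, had 2935 in PTIP deficient and 5024 in wild-type cells (log2 ratio -0.78), while the cohesin subunit STAG1 had 443 in PTIP deficient and 339 in wild-type cells (0.39). ORC1, of the origin recognition complex, had 865 in PTIP deficient and 2531 in wild-type cells (2.92-fold lower). The 104 measured genes of the 6 lists together had a median of -0.20, against -0.23 for the 37 kinetochore and checkpoint genes. Their share below 0 was 71.2%, against 73.0% for the 37 genes. The lists differ in size and share both arrays, the difference between them was not tested, and in bulk RNA fewer cells in mitosis and less transcript per cell cannot be told apart.

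**Figure D5:**
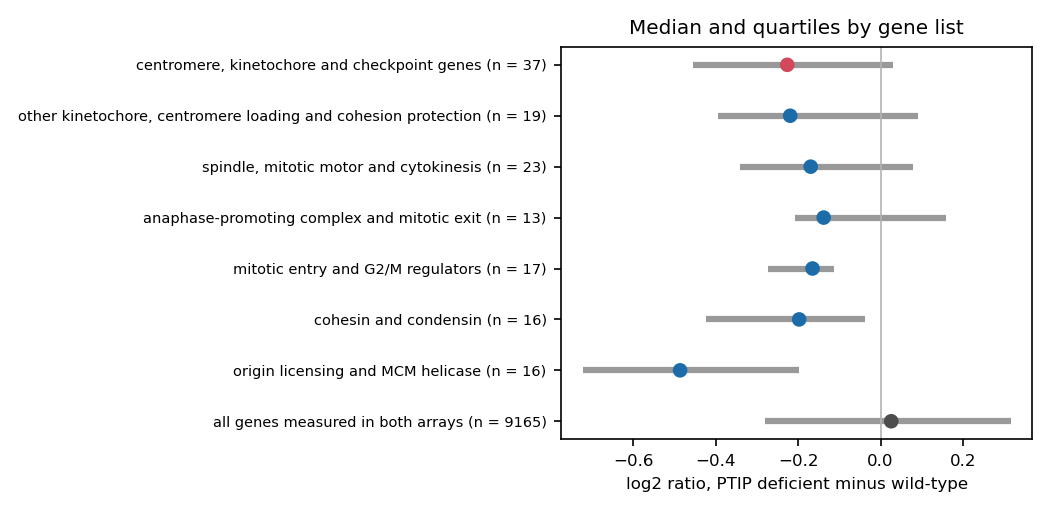
Median (point) and quartiles 1 to 3 (bar) of the log2 ratio of signals, PTIP deficient minus wild-type (horizontal axis), for the 37 kinetochore and checkpoint genes (red), 6 lists of other mitosis and licensing genes (blue) and all measured genes (dark grey), with the number of measured genes. The medians of the mitosis and cohesin lists lie from -0.23 to -0.14, that of origin licensing and MCM genes at -0.49 and that of all genes at 0.03.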

How the data were processed

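RNA of 1 PTIP deficient and 1 wild-type DT40 culture was hybridised to 1 Affymetrix chicken genome array each. The deposited file gives 1 linear signal intensity for each probe set and array. Per the submitters' processing notes the authors used GCOS, whose version and settings are not given here. The deposited intensities had been scaled to a common mean, which hides a difference in RNA per cell.

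The 96 control probe sets were left out, leaving 38439. A probe set was measured where both signals reached 31.0, percentile 40 of all non-control signals. Gene symbols came from the platform annotation (27178 probe sets with 1 symbol), updated by Entrez identifier to RefSeq GRCg7b, from which chromosome and gene order were also taken; symbols were matched directly, without synonyms. Each gene is its probe set of highest mean log2 signal, and its log2 ratio is PTIP deficient minus wild-type. A fold with 1 signal under 131.5, the highest of 57 reporter probe sets apart from 1 bright signal in the PTIP deficient array, is a bound. No p-value is given, since no test exists with 1 array per group. Genes named outside the list are the 2 highest and 2 lowest measured ratios of each other list, from which some were left out, with PAXIP1, cell markers and gene-order neighbours; the markers and neighbours shown were picked after their values were seen. The grouping into complexes and the classes of signal were chosen after the values were seen, and the genes and lists with earlier results of these data known. No promoter or protein sequence was used here. The calculation was tested on simulated data. Work was done in Python 3.11.15 with pandas 2.3.3 and statsmodels 0.14.6.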

Additional observations from a re-analysis of the deposited data

How the results depend on the processing

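Under 10 alternatives the median log2 ratio of the 37 genes stayed below 0 and 0 genes became at least 1.5-fold higher. Not all 10 could have changed this. Without a floor the same 37 values were used, and the higher floors kept 34 of them unaltered. Setting the hybridisation controls to 0 could only lower the ratios. Setting the hybridisation controls to 0 moved the median of all genes from 0.03 to -0.27, and with it the medians of the kinetochore and checkpoint genes to -0.52 (15 genes lower by 1.5-fold or more and 5 by 2-fold or more), other kinetochore genes to -0.52, spindle genes to -0.47, the anaphase-promoting complex to -0.43 (12 below 0), mitotic entry to -0.46, cohesin and condensin to -0.49 and origin licensing to -0.78. This setting subtracts the same constant from every gene, so the difference of medians between the 37 genes and all genes (-0.25) could not change. With it 73.8% of all genes were below 0 and 24.6% were lower by 1.5-fold or more. Shares of all genes past 2-fold are not given for this setting or for averaged probe sets, so those counts are a description only. Averaging all measured probe sets left 4 of 37 genes (10.8%) lower by 1.5-fold or more, against 10.8% of all genes, and 2 by 2-fold or more. It put ZWILCH at -0.17, and it put CENPM at -0.568 and CENPE at -0.577, just short of the bar of 0.585. It also turned the median of the anaphase-promoting complex to 0.014, and the cause of that turn was not tested. An offset of 50 also left 4, with CENPF at -0.55, ZWILCH at -0.54 and CENPE at -0.53, since it shrinks ratios most where signals are low. Without _s_at and _x_at probe sets, 8 other kinetochore genes and 8 origin licensing genes were below 0, fewer genes being measured. Of all genes in that setting 48.1% were below 0. How many genes of these lists were then measured is not given here, so the counts cannot be read as shares. CENPQ, CENPK and BUB3 have 1 probe set each, so only 5 of the alternatives, those of scaling and offset, could alter their values. Each stayed past 1.5-fold in all 5. The hybridisation setting could only lower these ratios and the others moved them little, so this adds little to the main values. BUB3, whose only probe set is an _s_at one, was not among the 33 genes of the list left without _s_at and _x_at probe sets. No paired analysis was possible because each genotype has 1 sample. The precision is limited by the number of arrays, and signals under 131.5 cannot be set apart from reporter signals.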
